A study of Drosophila melanogaster with 6 samples.

Results

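The genes described here are 10 core autophagy genes of the fly, Atg1, Atg2, Atg4, Atg5, Atg6, Atg7, Atg8a, Atg9, Atg18 and ref(2)P. They were found by symbol in a table of 14239 genes, and all 10 were present, each in a single row. The table gives mRNA levels of GFP-labeled cells sorted from wing imaginal discs, the larval tissue that forms the adult wing. In the 3 ablated samples the discs carried nub-GFP, a transposon insertion that labels the wing pouch, together with rn-Gal4, GAL80ts and UAS-rpr, so that a warm shift induced the cell death gene reaper in the wing primordium. The 3 control samples carried nub-GFP, rn-Gal4 and GAL80ts without UAS-rpr and went through the same shift. Animals grew at 18 °C, were held at 30 °C for 24 h and recovered for 24 h, when a regeneration blastema had formed. Each sample was a pool of cells from many discs and several days of dissection, chosen by GFP alone, so it holds any cell type in which the nub locus is active. The warm shift fell early in the last larval instar, and the sex of the larvae is not given in the sources used here. The table holds 1 FPKM value per gene for each group, the authors' value over 3 samples. FPKM is a fragment count scaled by transcript length and library size, so levels can be compared between genes. The spread between samples, the read depth behind a gene and a test across samples could not be computed from these values, and each fold change below is a description of 2 group values without an error.

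Autophagy is the process by which a cell encloses part of its cytoplasm in a double membrane, the autophagosome, and delivers it to the lysosome for breakdown. A kinase complex around Atg1 starts the process, a lipid kinase complex with Atg6 marks the membrane, Atg9, Atg2 and Atg18 supply and extend it, and a ubiquitin-like conjugation system of Atg7, Atg5, Atg4 and others attaches Atg8a to it. Atg8a then binds cargo receptors such as ref(2)P, the fly counterpart of p62, which is itself degraded together with its cargo. In the fly the pathway is best known from the larval fat body, where starvation and the steroid hormone ecdysone induce it, and TOR kinase holds it back in fed cells. Much of this control acts on proteins, so mRNA levels do not measure the rate of autophagy.

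The 10 genes stayed close to their control level as a group. None reached a log2 fold change of 0.5 in the higher direction, and 2, Atg1 and Atg4, lay at or below -0.5. Among all 8437 genes averaging at least 1 FPKM, 17.4% were at least 0.5 higher in the ablated group and 13.1% at least 0.5 lower, so 2 of 10 lower and 0 of 10 higher is not far from the background in either direction. No autophagy gene reached 1.3 on the log2 scale, the fold threshold that the study applied together with a p-value cutoff. By fold alone, 6.63% of the 8437 genes passed it in either direction. The log2 fold changes of the 10 genes ran from -0.57 to 0.23, with a median of 0.0031, beside a median of -0.039 over all 8437 genes. They were split evenly, 5 above and 5 below 0. Of the 10, 8 lay between the lower and upper quartiles of all genes, -0.33 and 0.33, a range that holds 50% of genes by construction. Because the samples are bulk RNA of sorted cells, fewer cells of a type and less RNA per cell cannot be told apart.

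The scale between the groups mattered for these small values. The deposited FPKM sum to a smaller total in the ablated group, and rescaling each group to the same total (TPM) adds 0.28 to every log2 fold change, which moves the median of all genes to 0.24 and that of the 10 genes to 0.28. On that scale Atg1 and Atg4 were the only autophagy genes below 0, at -0.29 and -0.22, and Atg6 alone was past 0.5 in the higher direction, at 0.51. On that scale 31.2% of all genes were past 0.5 higher and 5.01% lower. The position of each gene relative to the others did not depend on this shift. The directions of Atg1 and Atg4 (lower) and of Atg6, Atg7, Atg18 and ref(2)P (higher) held under the authors' scaling, TPM, median centring, upper quartile scaling and subtraction of the median of genes expressed at a similar level, whereas those of Atg2, Atg5, Atg8a and Atg9 did not hold under all 5. TPM, median centring and upper quartile scaling each add a positive shift, so they could not reverse a gene above 0 as deposited. For the higher genes only the subtraction could do so, and it left Atg7 at 0.036.

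**Figure D1:**
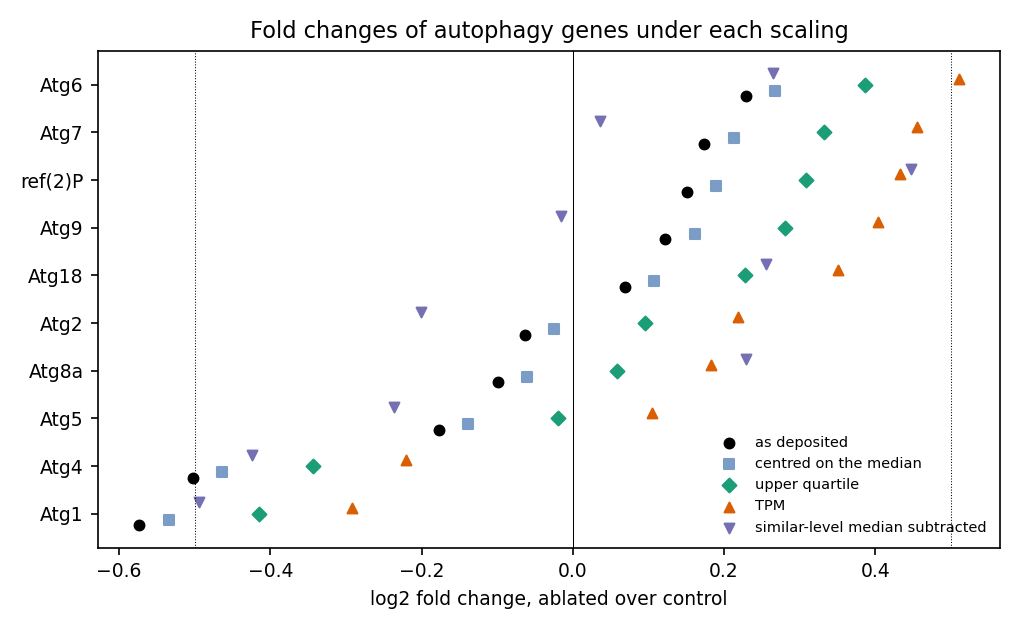
Log2 fold change of each autophagy gene as deposited and under 4 other ways of placing the groups on a common scale. Atg1 runs from -0.57 to -0.29 and Atg4 from -0.50 to -0.22, both below 0 throughout, and Atg6 from 0.23 to 0.51, while Atg2, Atg5, Atg8a and Atg9 fall on both sides of 0.

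The 10 genes covered a wide range of expression. Atg8a had the highest level, 305 FPKM in control pouch cells and 284 FPKM in the blastema, which was 58.3% and 56.9% of the summed FPKM of the 10 genes. Its control level was 3.87 times that of the next gene, ref(2)P, at 78.7 FPKM. The lowest control level was that of Atg7, 6.38 FPKM, and the lowest level in the ablated group was that of Atg2, 7.09 FPKM. Among all genes averaging at least 1 FPKM, Atg8a stood at percentile 95.9 of the control group and 96.5 of the ablated group, and Atg7 at percentiles 27.7 and 28.1. The order of the 3 most highly expressed genes, Atg8a, ref(2)P and Atg18, was the same in both groups. Lower in the order, Atg1 moved from place 4 to place 6 and Atg6 from place 6 to place 4, while Atg2 and Atg7 exchanged the last places. Atg1 and Atg4 differed by a factor of only 1.03 in the control group and Atg9 and Atg2 by less than that, so without a spread between samples these neighbours cannot be ordered.

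**Figure D2:**
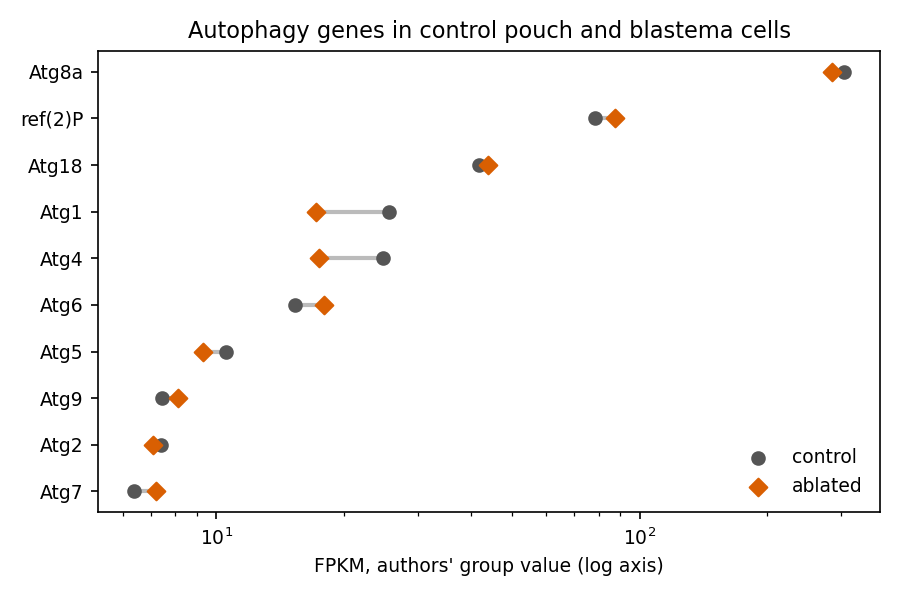
FPKM of each autophagy gene (log axis) in the control group (grey circles) and the ablated group (orange diamonds), 1 authors' value per group and no error. Only Atg1 and Atg4 are separated by a wide gap, from 25.6 to 17.2 FPKM and from 24.8 to 17.5 FPKM.

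The kinase that starts autophagosome formation, Atg1, had the log2 fold change furthest from 0 of the 10 genes under the authors' scaling. With TPM scaling Atg1 was at -0.29, and Atg6 was furthest from 0, at 0.51. The Atg1 gene lies in the locus on chromosome 3L from 12777529 to 12798214 in release 5 of the genome, which the deposited table uses. Its level was 25.6 FPKM in control pouch cells and 17.2 FPKM in the blastema, 0.672 times the control level and a log2 fold change of -0.57, at percentile 9.93 of the fold changes of all 8437 genes. Genes expressed at a similar level had a median log2 fold change of -0.078, and Atg1 lay 0.49 below it. The locus also holds CG17667, which had 3.87 FPKM in control pouch cells and 12.04 FPKM in the blastema. In the BDGP6.54 annotation, a later build, no exon of Atg1 overlaps an exon of another gene.

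The partners of Atg1 in the initiation complex were higher in the blastema, the opposite direction to Atg1, under all 5 scalings. For the partners, only subtraction of the median of genes expressed at a similar level could have reversed this. The other scalings add a positive shift to values already above 0. Atg13, the regulatory subunit that TOR phosphorylates, was at 7.93 FPKM in control pouch cells and 10.05 FPKM in the blastema, a log2 fold change of 0.34. Atg17, the scaffold subunit, listed as CG1347, was at 3.08 and 5.25 FPKM, a log2 fold change of 0.77, and Atg101, listed as CG7053, at 5.54 and 8.57 FPKM, a log2 fold change of 0.63. All 3 partners are expressed at a lower level than Atg1, and the locus of Atg101 holds 2 other genes of the table. The ratio of Atg1 to Atg13 FPKM was 3.23 in control cells and 1.71 in the blastema, that of Atg1 to Atg17 was 8.31 and 3.27, and that of Atg1 to Atg101 was 4.62 and 2.01. A ratio within a group does not depend on the scale between groups. Relative to genes expressed at a similar level, Atg13 was 0.20, Atg17 0.46 and Atg101 0.49 higher on the log2 scale.

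The gene of the lipid kinase complex among the 10 was Atg6, the fly Beclin, at chromosome 3R from 19874893 to 19879314. It had 15.3 FPKM in control pouch cells and 18.0 FPKM in the blastema, a log2 fold change of 0.23, the highest of the 10 and at percentile 69.3 of all genes. The locus is shared with CG5991, at 9.03 and 17.8 FPKM. The kinase gene Pi3K59F, which encodes Vps34, was at 7.78 and 8.45 FPKM, a log2 fold change of 0.12. In this role group of 6 genes the lowest value was that of Vps15, the pseudokinase partner of Vps34 (listed as ird1), with a log2 fold change of -0.32. The highest was that of Rubicon (listed as CG12772), known in mammals as an inhibitor of autophagy, with 2.17 and 3.74 FPKM, a log2 fold change of 0.78. Genes expressed at a similar level had a median of 0.44, and Rubicon lay 0.34 above it.

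The genes that supply the growing membrane had some of the smallest differences. Atg18, which binds the lipid made by Vps34 (chromosome 3L, 8180101 to 8183814), had 41.8 FPKM in control pouch cells and 43.8 FPKM in the blastema, a log2 fold change of 0.069. Atg9, a transmembrane lipid scramblase (chromosome 2R, 12181903 to 12184737), had 7.44 and 8.10 FPKM, a log2 fold change of 0.12, and Atg2, a lipid transfer protein (chromosome 3L, 2774379 to 2780688), had 7.41 and 7.09 FPKM, a log2 fold change of -0.063. None of these 3 genes shares its locus with another gene of the table. The paralog Atg18b (listed as CG8678) was at 2.45 FPKM in control pouch cells and 4.06 FPKM in the blastema, a log2 fold change of 0.73. It lay 0.42 above genes expressed at a similar level, and its locus holds 2 other genes of the table. The FPKM ratio of Atg18 to Atg18b was 17.1 in control cells and 10.8 in the blastema, so Atg18 remained the main form in these cells by mRNA level.

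In the conjugation system, Atg8a itself differed little under the authors' scaling. Of the enzymes that act on it, Atg3 and Atg4 were lower, and Atg7 and Atg4b were higher. Atg8a (chromosome X, 10658911 to 10662368) had a log2 fold change of -0.099, or 0.934 times its control level. Genes expressed at a similar level had a median log2 fold change of -0.33, so Atg8a lay 0.23 above them. Its paralog Atg8b, known in the fly for its role in the male germline, is listed at 0 in both groups.

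Atg4, the protease that exposes the end of Atg8a for conjugation and later releases it from membranes, had 24.8 FPKM in control pouch cells and 17.5 FPKM in the blastema. The log2 fold change was -0.50, at percentile 13.0 of all genes and only just past the threshold of 0.5. Its locus (chromosome 2L, 1080913 to 1102506) also holds CG4629, at 2.09 and 1.90 FPKM. In the BDGP6.54 annotation CG4629 lies on the opposite strand and 51.4% of the exonic bases of Atg4, there named Atg4a, overlap its exons. The sources used here do not say whether counting used the strand, so the value of Atg4 is uncertain. The paralog Atg4b (listed as CG6194) had 7.90 and 8.98 FPKM, a log2 fold change of 0.19, and the ratio of Atg4 to Atg4b was 3.14 in control cells and 1.95 in the blastema.

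Atg7, the activating enzyme of the system (chromosome 2R, 14507961 to 14512553), had 6.38 FPKM in control pouch cells and 7.20 FPKM in the blastema, a log2 fold change of 0.17. The conjugating enzyme that acts after it, Atg3 (listed as Aut1), was at 56.1 and 39.3 FPKM, a log2 fold change of -0.51 and the lowest of this role group. Atg5, part of the Atg12–Atg5–Atg16 complex that directs Atg8a to the membrane, had 10.5 and 9.30 FPKM, a log2 fold change of -0.18. Its locus on chromosome X, from 7175122 to 7299793, holds 13 other genes of the table, and in the BDGP6.54 annotation none of its exons overlaps an exon of another gene. The other subunits of that complex were Atg12, with a log2 fold change of -0.44, and Atg16 (listed as CG31033), with -0.31. Of the 9 conjugation genes averaging at least 1 FPKM, 7 were below 0 and 2 above, with a median of -0.18, and 2 were past the threshold, both lower. Over all genes 52.9% were below 0 and 13.1% past the lower threshold. With TPM scaling 4 of the 9 were below 0 and 5 above, and none was past the threshold, beside 28.8% of all genes below 0, so the direction of these counts rests on the scale.

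The cargo receptor ref(2)P (chromosome 2L, 19542446 to 19546914) had 78.7 FPKM in control pouch cells and 87.3 FPKM in the blastema, a log2 fold change of 0.15. Genes expressed at a similar level had a median of -0.30, and ref(2)P lay 0.45 above it, the largest such distance in the higher direction among the 10 genes. The FPKM ratio of ref(2)P to Atg8a was 0.258 in control cells and 0.307 in the blastema. Its locus is shared with CG10337, which lies on the opposite strand and overlaps 7.22% of its exonic bases in BDGP6.54. The other genes of cargo selection ranged from bchs, a large adaptor protein, with a log2 fold change of -0.16, to BNIP3 (listed as CG5059), a mitophagy receptor, with 0.19. Relative to genes expressed at a similar level, bchs was 0.66 lower and BNIP3 0.48 higher on the log2 scale.

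**Figure D3:**
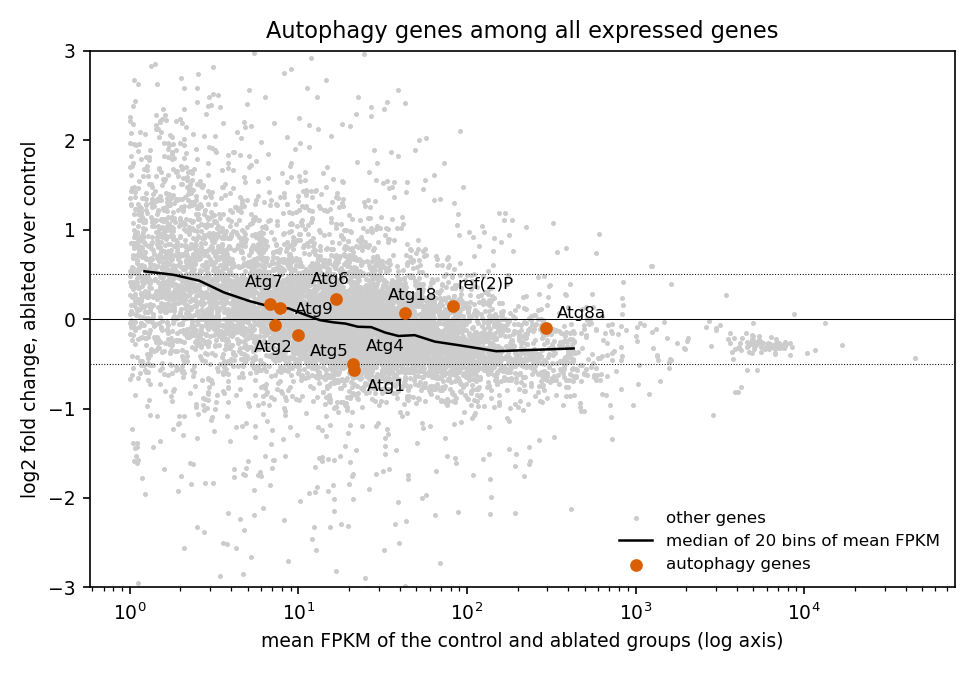
Log2 fold change of ablated over control against the mean FPKM of the groups (log axis) for 8327 genes averaging at least 1 FPKM (grey; 75 genes beyond 3 in either direction are not drawn, nor are 35 genes listed at 0 in 1 group), the median over 20 bins of mean FPKM (line) and the 10 autophagy genes (orange). Dotted lines mark 0.5 and -0.5, and only Atg1 (-0.57) and Atg4 (-0.50) reach the lower one.

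A list of 60 genes of the pathway, ordered by role, placed the 10 genes among 50 others, of which 49 averaged at least 1 FPKM. Of these 49, 8 were at least 0.5 higher in the ablated group and 4 at least 0.5 lower, with a median log2 fold change of 0.025, beside the background of 17.4% higher and 13.1% lower over all genes. Past the study's threshold of 1.3, by fold alone, were 3 of the 49 genes, all higher. Over all genes 4.49% were past it in the higher direction and 2.13% in the lower, so this count is not far from the background. All 3 are in the role group labelled upstream. That label gathers genes linked to TOR and the AMP-activated kinase. It does not mean that each of them controls autophagy.

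The genes of this upstream group had the widest range. Thor, the translation inhibitor 4E-BP, had a log2 fold change of 2.16. From the same data the paper lists Thor as upregulated, although it saw no elevated expression of a Thor reporter in regenerating discs. The paper also reports a role of Thor in regeneration, from wing sizes of heterozygous mutants. REPTOR (listed as CG13624), a transcription factor that TOR keeps inactive, had 1.79 FPKM in control pouch cells and 6.52 FPKM in the blastema. Its log2 fold change was 1.86. The AMP-activated kinase subunit SNF4Agamma had 9.46 and 27.4 FPKM, a log2 fold change of 1.53, at a locus that holds 3 other genes. Its partner subunits AMPKalpha (listed as SNF1A) and alc had log2 fold changes of -0.29 and -0.15. Rheb, the GTPase that activates TOR, had 71.4 and 46.2 FPKM, a log2 fold change of -0.63 and the lowest of the whole list. The TOR kinase gene itself was at 13.9 FPKM in both groups. Mitf, the fly counterpart of the lysosomal regulator TFEB, had a log2 fold change of -0.050 and foxo one of 0.22.

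Downstream, the 11 genes of autophagosome fusion with the lysosome had a median log2 fold change of 0.069. The lowest was Snap29 (listed as usnp), a SNARE protein, with 39.2 FPKM in control pouch cells and 26.3 FPKM in the blastema, a log2 fold change of -0.58, and the highest was Vps11 (listed as CG32350), a tethering complex subunit, with 0.46. Syx17, the SNARE placed on the autophagosome, had 0.40 from a low level of 4.17 FPKM. Of the 7 lysosomal genes, Lerp, a receptor that sorts enzymes to the lysosome, was highest with 0.55 and cathD, a lysosomal protease, lowest with -0.53, from 197 FPKM in control pouch cells to 137 FPKM in the blastema. Relative to genes expressed at a similar level, Lerp was 0.35 higher and cathD only 0.17 lower on the log2 scale. The protease gene Cp1 had a log2 fold change of 0.0029, at 237 FPKM in control pouch cells and 238 FPKM in the blastema.

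**Figure D4:**
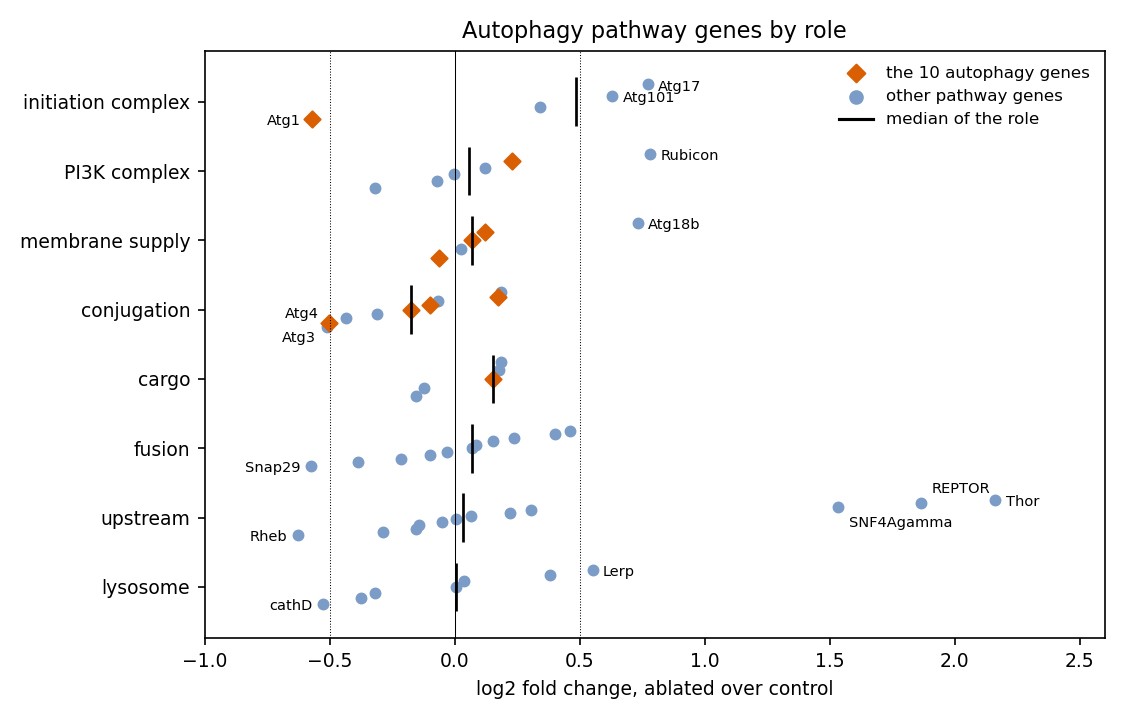
Log2 fold change of ablated over control for the 59 pathway genes averaging at least 1 FPKM, by role, with the 10 autophagy genes as orange diamonds, the others in blue and a black line at the median of each role. Dotted lines mark 0.5 and -0.5, genes past them are named, and Atg1 (-0.57) stands on the opposite side of 0 from Atg13, Atg17 and Atg101.

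The sorted cells were checked by marker lists. Of the 5 wing pouch markers nub, rn, vg, sd and Dll, of which nub drove the sort, 4 were at least 0.5 lower in the ablated group (2, nub and Dll, with TPM scaling, where the same 4 were below 0), and the summed level of all 5 was 301 FPKM in control pouch cells and 217 FPKM in the blastema. All 3 hinge markers (146 and 240 FPKM summed), all 4 notum markers (105 and 143 FPKM) and all 5 myoblast markers (5.73 and 32.2 FPKM) were higher on both scales. The 5 hemocyte markers summed to 1.19 and 2.98 FPKM, with NimC1 listed at 0 in the control group, and the 4 fat body markers to 0.292 and 0.400 FPKM, so defining genes of the tissue in which fly autophagy is best known were near 0 in both groups. Of the tracheal markers, trh had 21.8 and 3.64 FPKM and btl 1.07 and 3.33 FPKM. The part of these marker differences in the autophagy values was not tested. The gene rpr, which the transgene carries, was at 70.3 FPKM in control pouch cells and 55.2 FPKM in the blastema after recovery. It was therefore not higher in the group that carries UAS-rpr at the time of sorting.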

How the data were processed

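The authors trimmed the reads, removed adaptors, aligned them with Tophat2 (version 0.6 in the submitters' processing notes) to release 5 of the fly genome, using gene models of that release,, and estimated FPKM with Cufflinks (version 0.0.7), correcting for sequence bias and multiply mapped reads. Cuffdiff with geometric library normalization gave the deposited FPKM, 1 value per gene for each group of 3 samples. The deposited table also holds the authors' fold changes, test statistics, p-values and q-values, which were not used. No column of single samples was used, so no read depth, replicate spread, test or interval is given.

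A log2 fold change is the log2 of ablated over control FPKM, with no pseudocount. Genes averaging at least 1 FPKM formed the background, and a gene was counted past a threshold of 0.5 in either direction. The named genes are the 10 autophagy genes and, from the pathway lists, every gene past 0.5 and the extremes of each role, with others of known role named after their values were seen. The 10 genes, the lists and the thresholds were chosen with earlier results of these data known. Older symbols were matched through RefSeq synonyms (60 of 60 pathway genes matched). Loci are those of release 5, counted from 1, and a locus can span several genes. Exon overlap was taken from the BDGP6.54 annotation without transfer of coordinates. The alternatives were pseudocounts of 0.1 and 1 FPKM, TPM, median and upper quartile scaling, subtraction of the median log2 fold change within 20 bins of mean FPKM, thresholds of 0.3, 1.0 and 1.3, no filter or a mean FPKM of at least 5, and leaving out shared loci. The code was run on the deposited control values with known fold changes put in, without noise, which checks the arithmetic only. Python 3.11.15 with numpy 2.4.6, pandas 2.3.3 and matplotlib 3.10.9 was used.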

Additional observations from a re-analysis of the deposited data

How the results depend on the processing

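No paired analysis was possible because the values used here are 1 per group and carry no replicate number, and for the same reason no replicate could be left out. The median log2 fold change of the 10 autophagy genes was 0.0031 as reported, 0.28 with TPM scaling and 0.16 with upper quartile scaling, and it moved by less than 0.1 under the other alternatives. The number of autophagy genes at least 0.5 higher was 0 in all alternatives except TPM scaling, where it was 1 (Atg6). The number at least 0.5 lower was 2 as reported. It was 1, Atg1 alone, with a pseudocount of 0.1 or 1 FPKM or after centring on the median, and 0 with TPM scaling, upper quartile scaling, correction for the median of genes expressed at a similar level, a threshold of 1.0 or 1.3, or shared loci left out, since both genes share a locus. Atg4 was thus past the threshold only with the values as deposited, with a lower threshold or with another filter on low values. Of the 59 pathway genes, 8 were higher and 6 lower as reported, beside 17.4% and 13.1% of all genes. The number higher was 16 with TPM scaling (31.2% of all genes), 4 after correction for the median of genes expressed at a similar level (14.2%), 13 at a threshold of 0.3 (26.1%), 3 at 1.0 (7.41%) and at 1.3 (4.49%), 5 with shared loci left out (18.2%) and 4 with a mean FPKM of at least 5 (9.91%). Leaving out shared loci or asking for a mean FPKM of at least 5 also removes pathway genes, so those 2 counts are out of fewer than 59. The number lower was 0 with TPM (5.01% of all genes) or upper quartile scaling (7.22%) and at thresholds of 1.0 (2.87%) and 1.3 (2.13%), 3 after median centring (11.3%), 2 after correction for the median of genes expressed at a similar level (11.1%) and 12 at a threshold of 0.3 (27.3%). The 2 lower genes after the correction for level were bchs (-0.66) and Vps15 (-0.52), neither of them among the 6 as reported. The 4 higher genes after it were Thor, REPTOR, SNF4Agamma and the lysosomal gene spin (0.63), and spin was not among the 8 as reported. The cause of these changes was not tested beyond the shift each scaling adds. Neither Atg1 nor Atg4 changed direction under any alternative. Differences of this size cannot be set against an error, because no replicate values were used.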
